A study of Sus scrofa with 55 samples.

Results

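The genes of a set of 7 from the cyclic AMP (cAMP) and protein kinase A (PKA) system that holds the oocyte in meiotic arrest were followed across antral follicle growth in the pig (Sus scrofa). They are the rows of the deposited count table with the symbols GPR3, ADCY3, PDE3A, PRKAR1A, PRKAR2B, PRKACA and PRKACB, so 7 of 25880 gene IDs, and all 7 symbols were present once. The study lysed 55 single oocytes, pelleted their DNA and made full-length cDNA libraries by Smart-seq2 from the cytoplasmic RNA left in the supernatant. All animals were wild-type Landrace Yorkshire gilts, young females aged 208 to 210 days, each injected with 5 IU of PMSG (pregnant mare serum gonadotropin), which makes antral follicles grow, 48 h before the ovaries were taken. No untreated gilts enter the data used here, so every stage was sampled under the same hormone. The oocytes were graded by follicle into antral stages 1 to 5, with 11, 12, 11, 11 and 10 oocytes in that order. Gilt 201 gave 14 of them, gilt 205 gave 9, gilt 801 gave 12 with none at stage 5, and gilt 803 gave 20, and the gilt is the replicate.

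In mammalian oocytes the receptor GPR3 signals through a stimulatory G protein to adenylyl cyclase, mainly ADCY3 in rodents, which makes cAMP from ATP. The phosphodiesterase PDE3A breaks cAMP down, and cGMP that enters from the granulosa cells through gap junctions inhibits it. PKA is a pair of catalytic subunits, from PRKACA or PRKACB, held inactive by a pair of regulatory subunits such as those from PRKAR1A or PRKAR2B. cAMP binds the regulatory subunits and frees the catalytic ones, which keep the maturation-promoting kinase CDK1 inactive by acting on WEE2 and CDC25B. When cAMP drops, the oocyte resumes meiosis.

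The libraries held between 151104 and 38282850 counts (median 12139540), and the share of counts from the 13 mitochondrially encoded genes ran from 2.1% to 91.8%. In 13 libraries the counts of granulosa and cumulus markers exceeded those of oocyte markers, and these are called granulosa-rich. They were 12 libraries of gilt 803 and 1 of gilt 801, and stages 1 to 5 held 3, 1, 3, 4 and 2 of them. Their granulosa and cumulus markers summed to 4257 to 31869 counts per 1000000 (CPM) and their oocyte markers to 51.5 to 5888 CPM, against 15.0 to 11321 CPM and 1066 to 56713 CPM in the other 42 libraries. Of the 22 granulosa and cumulus markers with an ID, 9 to 19 had counts in a granulosa-rich library and 6 to 21 in another library, and AMH, a granulosa hormone, was at 0 in all. The oocyte genes ZP3, a zona pellucida protein, and GDF9, an oocyte growth factor, had medians of 193 and 145 TMM-scaled CPM over the stages of gilt 803, against 4941 to 13957 and 1172 to 2293 in the other 3 gilts. A further 3 deep libraries of gilt 801, oocyte 4 of stage 2 and oocytes 2 and 3 of stage 4, had nearly the same profile, with Pearson r of 0.986 to 0.991 against a median of 0.606 over all pairs. Within a library, RNA of the oocyte and RNA of cells that came with it cannot be told apart.

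GPR3, the receptor at the top of the pathway, was hardly measured. It had 206 counts in all, in 12 of 55 oocytes, and 104 of those counts lay in 1 library, oocyte 4 of gilt 803 at stage 1, at 26.4 CPM with a 95% Wilson interval of 21.8 to 32.0. In the other 11 oocytes it stood at 0.0972 to 0.956 CPM. Stages 1 to 5 held 4, 1, 3, 3 and 1 oocytes with a count, and the stage medians were all 0. In the 43 oocytes with no count, the limit that 3 counts set ran from 0.114 to 19.9 CPM, so a low level was not detectable at the depth of the shallow libraries. Of its 206 counts, 6 came from a granulosa-rich library and 28.2% from the 3 gilt 801 libraries of nearly the same profile. The library with 104 of them held 10485 CPM of granulosa and cumulus markers beside 17485 CPM of oocyte markers. GPR12, a receptor of the same kind that rodent oocytes also use, was looked at after its values were seen: it had counts in 9 oocytes, and 199 of its 253 counts lay in oocyte 4 of gilt 803 at stage 5.

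ADCY3, the cyclase, was detected in 51 of 55 oocytes, at a median of 14.8 CPM and up to 181 CPM. Over stages 1 to 5 its medians were 20.4, 12.2, 21.2, 29.8 and 8.05 CPM, and its highest oocytes stood at 151, 156, 107, 181 and 127 CPM. The 107 CPM lay in a granulosa-rich library, and the highest other stage 3 oocyte stood at 96.1 CPM. Plain CPM, the scale of the stage medians given for each gene, includes mitochondrial counts. Their median share was lowest at stage 4, at 9.05%, and stood at 73.3% at stage 5. In CPM of nuclear-encoded counts, which leaves these out, the ADCY3 medians were 54.7, 66.4, 57.5, 84.3 and 73.5. Stage 5 was thus lowest in plain CPM only. The lowest oocyte of every stage was under 1 CPM, at stage 4 in a granulosa-rich library, and the stages overlapped widely. The 3 highest values, 181, 177 and 156 CPM, belonged to the 3 gilt 801 libraries of nearly the same profile, which held 45.0% of all ADCY3 counts. Outside these and the granulosa-rich libraries the highest value was 151 CPM (95% Wilson interval 145 to 156), in oocyte 1 of gilt 205 at stage 1.

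PDE3A, the phosphodiesterase that opposes ADCY3, had counts in fewer oocytes. It was at 0 in 14 oocytes, its median was 1.56 CPM and its maximum 48.5 CPM. Over stages 1 to 5 its medians were 4.13, 1.10, 0.382, 3.14 and 1.08 CPM, and its highest oocytes stood at 21.4, 41.3, 22.0, 41.1 and 48.5 CPM. The 48.5 CPM lay in a granulosa-rich library, and the highest other stage 5 oocyte stood at 28.6 CPM. In CPM of nuclear-encoded counts the stage medians were 8.96, 5.42, 0.595, 11.8 and 3.78. The highest median was thus at stage 1 in plain CPM and at stage 4 on that scale. Every stage held oocytes at or below 0.0810 CPM outside the granulosa-rich libraries, so the stages overlapped from end to end. The 3 alike libraries of gilt 801 carried 48.3% of all PDE3A counts, at 41.3, 41.1 and 31.3 CPM. PDE3A had counts in all 12 oocytes of gilt 801, with a median of 8.09 CPM, against 8 of 14 oocytes and 0.100 CPM in gilt 201. In the 39 libraries that were neither granulosa-rich nor among the 3 alike ones, the median was 1.98 CPM for PDE3A and 14.2 CPM for ADCY3.

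PRKAR1A, the type I regulatory subunit, had counts in 53 of 55 oocytes, with a median of 53.2 CPM. Over stages 1 to 5 its medians were 53.2, 41.1, 54.8, 127 and 52.4 CPM, with highest oocytes of 647, 2045, 1447, 619 and 1129 CPM. All of these but the stage 2 oocyte were granulosa-rich libraries of gilt 803. Without the granulosa-rich libraries the highest oocytes stood at 274, 2045, 133, 152 and 118 CPM. Stage 4, with the highest median, also had the most granulosa-rich libraries and the lowest median mitochondrial share, 9.05%. Without the granulosa-rich libraries the medians over the stages were 44.0, 32.3, 37.99, 93.1 and 52.4 CPM. Stage 4 there included oocytes 2 and 3 of gilt 801, from the 3 alike libraries, at 152 and 149 CPM. In CPM of nuclear-encoded counts those medians were 149, 174, 168, 160 and 174, and over all oocytes 156, 176, 248, 236 and 174. The stage 4 peak was thus seen in plain CPM only. The values still overlapped at every stage. The highest oocyte, oocyte 4 of gilt 803 at stage 2 with 2045 CPM, was the shallowest library, and 309 counts gave it a 95% Wilson interval of 1829 to 2286 CPM.

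PRKAR2B, the type II regulatory subunit, had a median of 7.02 CPM, was at 0 in 9 oocytes and reached 683 CPM. Over stages 1 to 5 its medians were 2.47, 3.97, 7.48, 8.78 and 8.21 CPM. In CPM of nuclear-encoded counts its medians were 6.62, 7.16, 36.3, 15.9 and 23.2, highest at stage 3 rather than stage 4. It had a count in 6 of 11, 10 of 12, 11 of 11, 10 of 11 and 9 of 10 oocytes of stages 1 to 5. The 5 highest values, 189 to 683 CPM, were all in granulosa-rich libraries of gilt 803. Without the granulosa-rich libraries the stage medians were 2.72, 1.80, 5.39, 7.85 and 5.95 CPM.

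The catalytic subunits, which phosphorylate the targets of PKA, had few counts. PRKACA had a median of 3.41 CPM and a maximum of 35.5 CPM, with stage medians of 2.80, 1.68, 8.34, 7.99 and 0.705 CPM. PRKACB had a median of 2.87 CPM and a maximum of 98.3 CPM, with stage medians of 2.91, 2.18, 0.220, 5.45 and 2.03 CPM. PRKACA was at 0 in 8 oocytes and PRKACB in 9, and for both every stage held oocytes under 1 CPM beside oocytes over 20 CPM. The highest PRKACB value of stage 2, 58.0 CPM, was in oocyte 3 of gilt 803, whose blood, immune and endothelial markers summed to 9995 CPM against 1066 CPM for its oocyte markers. The 2 proteins are close paralogs, and how reads that match both were counted is not given in the sources used here.

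**Figure D1:**
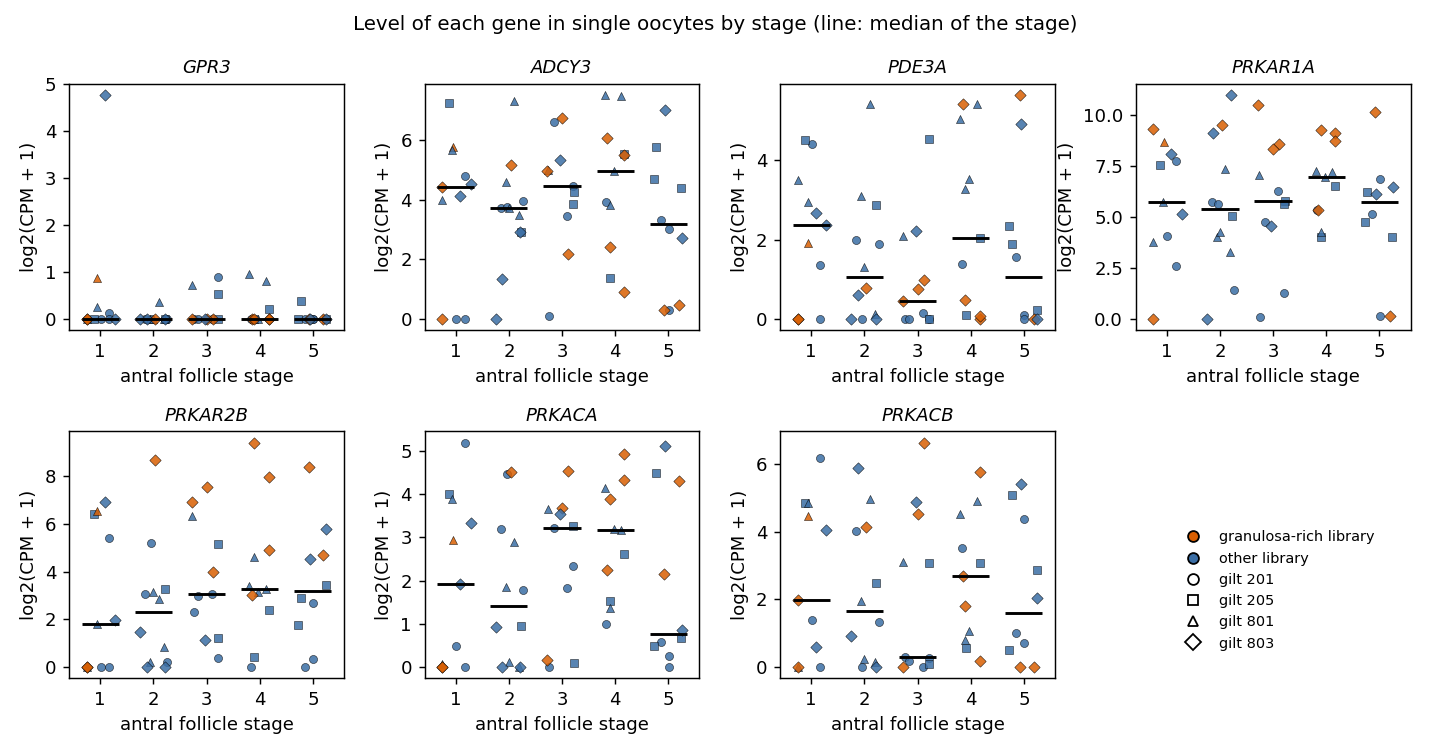
Level of each of the 7 genes in the 55 oocytes (y axis, log2 of CPM + 1) by antral follicle stage (x axis), with a line at the stage median, granulosa-rich libraries in orange, the others in blue and 1 symbol per gilt. The stages overlap for every gene, GPR3 is at 0 in 43 oocytes, and the top of PRKAR2B is held by granulosa-rich libraries.

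The order of the genes within an oocyte was read from the length-scaled table, which does not list GPR3. Among the 53 oocytes with at least 20 counts of the 6 other genes together, PRKAR1A was the highest per length in 41 and made up a median of 54.9% of their summed value. ADCY3 was highest in 7 oocytes, PRKAR2B in 4 and PDE3A in 1. ADCY3 followed with a median of 8.92% of the sum, then PRKAR2B with 6.07%, PRKACA with 1.44%, PDE3A with 0.847% and PRKACB with 0.438%. The summed length-scaled value of the regulatory pair over that of the catalytic pair had a median of 26.1 (quartiles 8.39 and 103) and exceeded 1 in 51 of the 52 such oocytes where it could be formed. PRKAR2A, the other type II regulatory subunit, and PRKX, a related catalytic kinase, are outside these sums. The ratio rests on the length-scaled PRKACB value, which gave a median of 18.1% of the catalytic pair against 59.5% by counts. It was not formed on counts. Granulosa-rich libraries, which held 68.6% of all PRKAR1A and 77.7% of all PRKAR2B counts, were not set apart in these values.

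Which catalytic subunit an oocyte carried varied across the whole possible range. Among the 37 oocytes with at least 20 catalytic counts, PRKACB gave a median of 59.5% of the counts of the pair, from 0% to 100%. It gave under 10% in 7 oocytes and over 90% in 4. The 5 stage 1 oocytes with enough counts lay at 63.1% to 75.6%. The shares under 1% at stages 4 and 5 were all in granulosa-rich libraries, and without those libraries the lowest shares over stages 1 to 5 were 63.1%, 0%, 0%, 11.7% and 55.3%. By the length-scaled table the median share of PRKACB was 18.1%, and the same 5 stage 1 oocytes spread from 20.5% to 79.4%. The split of the pair thus depends on the table used. The ratio of the length-scaled value to the count of PRKACB varied from 0.228 to 13.9 times its median between oocytes. For PRKAR1A it varied from 0.292 to 6.39 times. The range was widest for PRKACB among the 6 genes, but it includes the unknown scale of each library.

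PRKAR2B gave a median of 8.44% of the regulatory counts in 51 oocytes with at least 20 of them, and 10.4% by the length-scaled table. The share passed 90% in 2 oocytes and was under 10% in 28. Stages 1 to 5 had medians of 6.15%, 8.82%, 14.7%, 5.82% and 23.0%. Without the granulosa-rich libraries these were 6.15%, 8.44%, 20.6%, 5.56% and 8.44%, so stage 5 was highest only with them. The median share was 20.7% in the 12 granulosa-rich libraries and 8.06% in the 39 others. PRKAR1A thus held most regulatory counts in all but 4 of the 51 oocytes.

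**Figure D2:**
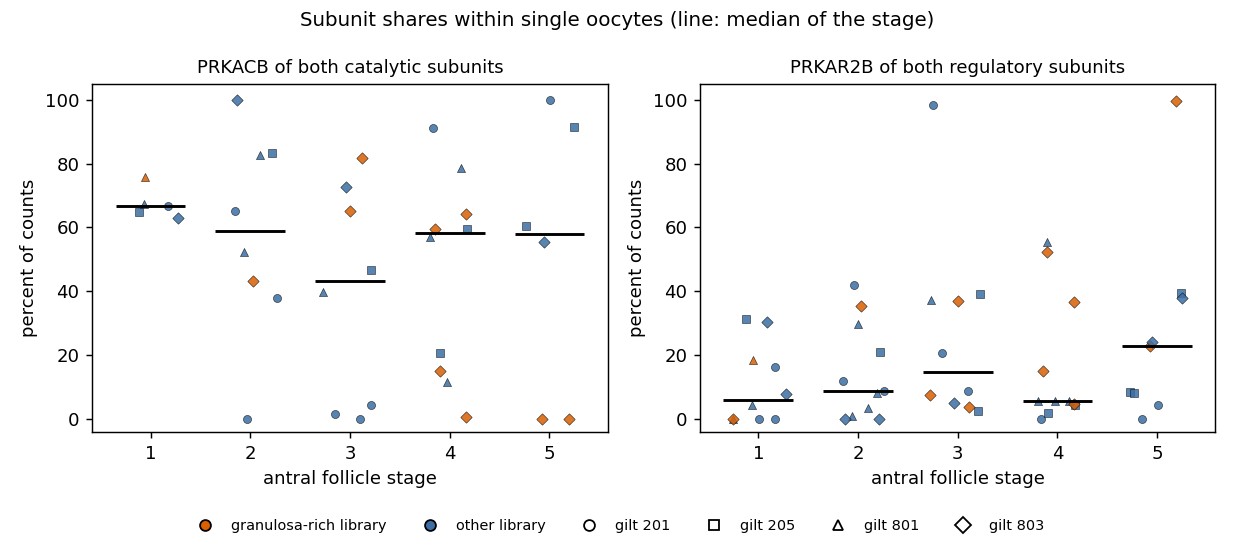
Share of PRKACB in the counts of both catalytic subunits and of PRKAR2B in the counts of both regulatory subunits (y axes, percent) in single oocytes with at least 20 counts of the pair, by stage (x axes), with a line at the stage median. PRKACB shares run from 0% to 100% over all stages, and the stage 4 and 5 values under 1% are all granulosa-rich libraries.

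The regulatory subunits had higher medians in the granulosa-rich libraries on every scale used, and the phosphodiesterase had lower ones. PRKAR1A had a median of 431 CPM in the granulosa-rich libraries and 44.7 CPM in the others, and PRKAR2B 93.0 and 4.82 CPM. Mitochondrial counts took 2.1% to 30.2% of the granulosa-rich libraries and 3.62% to 91.8% of the others, which bears on CPM. Per 1000000 counts of the remaining, nuclear-encoded genes, PRKAR1A had medians of 464 and 171, PRKAR2B 99.3 and 13.1, and PRKACA 14.4 and 9.56. On that scale PDE3A had 0.416 in granulosa-rich libraries and 9.73 in the others, ADCY3 had 23.1 and 86.3, and PRKACB 3.30 and 12.4. The direction of PRKACB and ADCY3 thus depends on the scale, since their plain CPM medians were 2.91 and 20.4 in granulosa-rich libraries against 2.25 and 14.6 in the others.

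Nearly all of these libraries came from gilt 803, so the same was looked at within it. There PRKAR1A had a median of 499 CPM in the 12 granulosa-rich libraries and 79.2 CPM in the 8 others, PRKAR2B 74.3 and 2.39 CPM, PRKACA 12.8 and 1.85 CPM, PRKACB 2.69 and 9.29 CPM, PDE3A 0.391 and 2.08 CPM, and ADCY3 12.4 and 11.6 CPM. Per 1000000 nuclear-encoded counts the ratios between these medians were smaller for the regulatory subunits and PRKACA, with PRKAR1A at 522 and 228, PRKAR2B at 76.1 and 7.63 and PRKACA at 15.6 and 3.86. PRKACB stood at 2.93 in the granulosa-rich libraries of gilt 803 and 34.5 in its others on that scale, PDE3A at 0.403 and 4.85 and ADCY3 at 13.8 and 24.1. PRKACB within gilt 803 thus ran against its plain CPM medians over all libraries. The granulosa-rich libraries held 68.6% of all PRKAR1A counts, 77.7% of PRKAR2B, 29.6% of PRKACA, 23.1% of PRKACB, 13.4% of PDE3A and 12.6% of ADCY3. The part of granulosa RNA in these levels was not tested.

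In the 39 libraries that were neither granulosa-rich nor among the 3 alike ones, PRKAR1A per 1000000 nuclear-encoded counts had a median of 174 with quartiles of 110 and 325. Its medians in the libraries of this set from gilts 201, 205, 801 and 803 were 160, 190, 149 and 228. PRKAR1A and ADCY3 had the narrowest quartiles relative to their medians among the 6 genes other than GPR3: ADCY3 had quartiles of 33.9 and 130, PDE3A of 0.148 and 22.1, PRKAR2B of 1.73 and 71.0, PRKACA of 1.55 and 28.05 and PRKACB of 1.06 and 48.5.

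**Figure D3:**
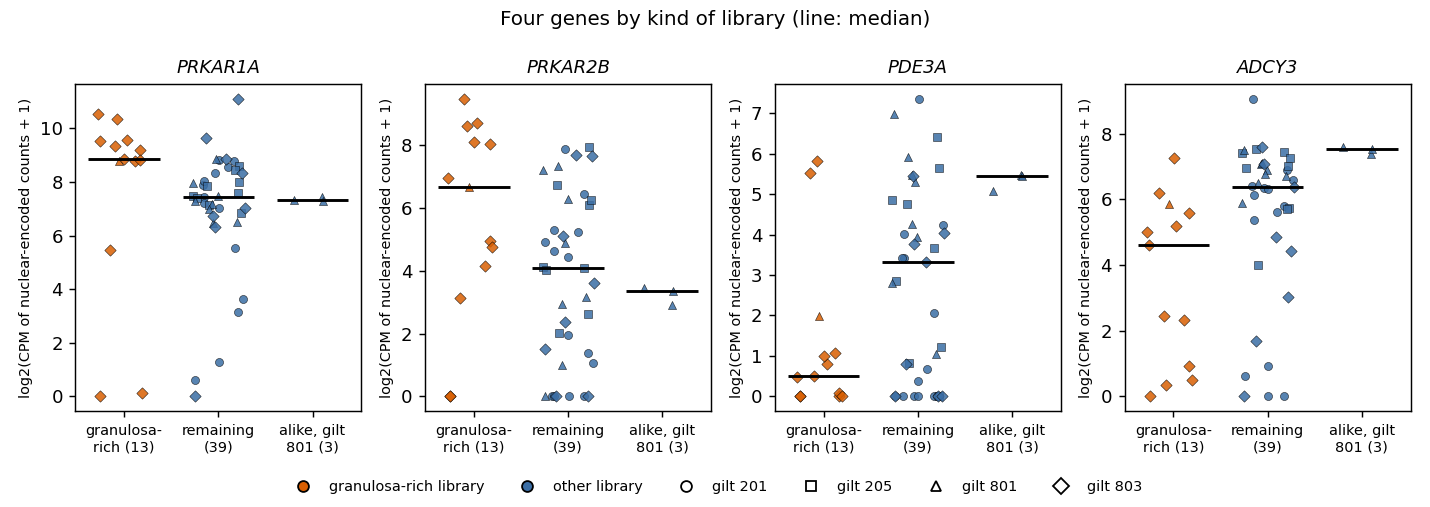
PRKAR1A, PRKAR2B, PDE3A and ADCY3 (y axes, log2 of CPM of nuclear-encoded counts + 1) in the 13 granulosa-rich libraries, the 39 remaining ones and the 3 alike libraries of gilt 801 (x axes), with a line at each median. PRKAR1A and PRKAR2B have higher medians in granulosa-rich libraries, and PDE3A and ADCY3 lower ones.

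Over the 55 oocytes, ranked by CPM of nuclear-encoded counts, PRKAR2B went with the summed granulosa and cumulus markers at a Spearman rho of 0.56 and PRKAR1A at 0.45, and ADCY3 went against them at -0.43. Without the granulosa-rich libraries (n = 42) these were 0.44, 0.31 and -0.34. Between members, PRKAR1A and PRKAR2B had a rho of 0.44, ADCY3 and PDE3A of 0.43, and PRKACA and PRKACB of 0.42, and these were 0.33, 0.40 and 0.38 without the granulosa-rich libraries. These pairs were the highest over the 55 oocytes. Without the granulosa-rich libraries other pairs reached like values: PRKACA had 0.39 with ADCY3 and 0.37 with GPR3, and PRKACB 0.35 with PDE3A. ADCY3 also went with the total count of the library at 0.53. The oocytes share gilts and library preparation, so these are descriptions.

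The question of the design, whether levels differ as the antral follicle grows, was tested on counts summed per gilt and stage, with gilt in the model. No stage difference of a member passed the test. Stage 5 was set against stage 1 with 3 gilts against 4, and levels of sums are given as TMM-scaled CPM, counts per 1000000 scaled by the trimmed mean of M-values. PRKAR1A stood at 141, 41.7 and 160 in gilts 201, 205 and 803 at stage 5, against 131, 52.4 and 115 in the same gilts and 87.0 in gilt 801 at stage 1. PRKAR2B stood at 5.35, 7.24 and 53.5 at stage 5, against 23.5, 23.9 and 37.4 and, in gilt 801, 15.8 at stage 1. PRKAR2B was therefore lower at stage 5 in gilts 201 and 205 and higher in gilt 803, and the groups overlapped.

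PRKACA, a catalytic subunit, stood at 0.660, 7.24 and 13.2 in gilts 201, 205 and 803 at stage 5, against 20.2, 4.21 and 5.00 at stage 1 and 4.42 in gilt 801. PRKACB stood at 20.3, 13.2 and 12.8 at stage 5, against 40.9, 7.78 and 7.35 and, in gilt 801, 10.2 at stage 1. Both catalytic genes were thus lower at stage 5 in gilt 201 and higher in gilts 205 and 803. Single oocytes weighed on these sums. In gilt 201 at stage 1, oocyte 1 held 365 PRKACA and 731 PRKACB counts, and oocytes 2 and 3 held 0 to 12 of either. That library had 6347 CPM of granulosa and cumulus markers. In gilt 803 at stage 5, oocyte 4 held 734 PRKACA and 908 PRKACB counts. Its other oocytes held 4 to 183 and 0 to 15. PDE3A stood at 1.83, 2.85 and 14.3 at stage 5, against 8.91, 5.97, 3.49 and, in gilt 801, 7.59 at stage 1. ADCY3 stood at 16.2, 36.6 and 38.6 at stage 5, against 15.2, 42.0, 15.5 and, in gilt 801, 28.7 at stage 1. For every gene the stage 5 values overlapped those of stage 1.

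The fitted log2 changes from edgeR's quasi-likelihood test were -0.19 ± 0.674 (SE) for PRKAR1A, -1.44 ± 1.12 for PRKAR2B, 0.04 ± 1.33 for PRKACA, -0.06 ± 1.09 for PRKACB, 0.42 ± 1.66 for PDE3A and 0.56 ± 0.838 for ADCY3. The smallest Benjamini-Hochberg adjusted edgeR p among these 6 was 0.968, for PRKAR2B, and GPR3 had 0.934 and is given no fold change, being at or under its limit in nearly all oocytes. Of the 15637 genes tested, 0 were called (0% called), with 840 at an unadjusted p under 0.05 and none of the 7 among them, 368 called by DESeq2, none of them a member, and 0 by limma-voom. The median change of all tested genes was -0.27, relative to which these changes can be read. With standard errors of 0.674 to 1.66 on the log2 scale, changes of that size were not detectable.

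The trend over the stages gave log2 changes per stage of 0.13 ± 0.182 (SE) for ADCY3, -0.02 ± 0.324 for PDE3A, -0.03 ± 0.146 for PRKAR1A, -0.40 ± 0.282 for PRKAR2B, -0.04 ± 0.278 for PRKACA and -0.03 ± 0.204 for PRKACB, all with an adjusted edgeR p of 1.00. The background was 2 of 15637 genes called (0.0128%). The F test for any difference among the 5 stages had unadjusted p-values of 0.203 to 0.967 and an adjusted edgeR p of 1.00 for each of the 7, with 0 genes called (0%), 840 at an unadjusted p under 0.05 and 46 called by DESeq2. Leaving out gilt 803 turned the stage 5 change of ADCY3 to -0.15, PRKACA to -1.04 and PDE3A to -1.86. Leaving out gilt 201 turned PRKACB to 0.57, gilt 205 PRKACA to -0.39 and gilt 801 PRKAR1A to 0.08.

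**Figure D4:**
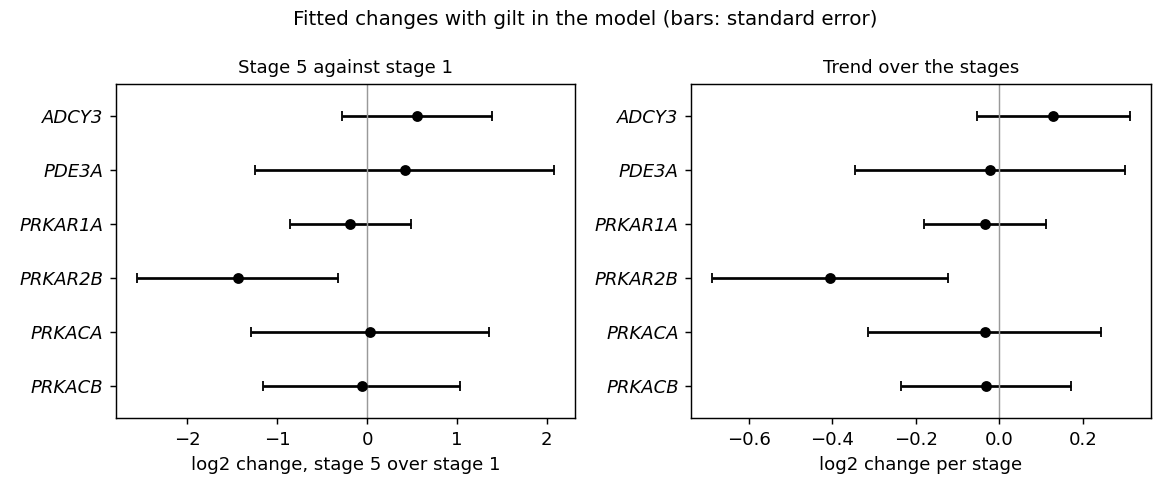
Fitted log2 change of 6 genes at stage 5 over stage 1 (left, x axis) and per stage (right, x axis), from edgeR with gilt in the model, with bars of 1 standard error. The bars cross 0 for every gene except PRKAR2B, whose changes of -1.44 and -0.40 did not pass the test either.

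Both regulatory subunits had their highest median in gilt 803. Summed per stage, PRKAR1A ran from 115 to 505 TMM-scaled CPM in gilt 803 (median 166), against medians of 90.8, 75.7 and 58.3 in gilts 201, 205 and 801. PRKAR2B ran from 37.4 to 97.6 in gilt 803 (median 61.6), against medians of 17.4, 20.2 and 9.44. Gilt 803 also had the highest granulosa and cumulus markers, with a median of 6230 CPM per library against 140 to 247 CPM in the other gilts.

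In the F test among the 4 gilts, 339 of 15637 genes were called (2.17%), and none of the 7 genes was among them. PRKAR1A had an unadjusted p of 0.00884 and an adjusted edgeR p of 0.167, and PRKAR2B 0.00832 and 0.161. The other 5 had adjusted edgeR p-values of 0.827 to 0.963. The outcome for the regulatory subunits depended on the tool: DESeq2, which called 6.43% of all genes, gave adjusted p-values of 0.0258 for PRKAR1A and 0.0425 for PRKAR2B. In limma-voom, with 2.51% called, PRKAR1A had 0.0498, and in edgeR with no low-count filter, with 4.06% of 23035 genes called, PRKAR2B had 0.0198. Without the granulosa-rich oocytes, which leaves 18 sums, 14 of 14706 genes were called, against 339 of 15637 with them. The adjusted edgeR p-values there were 0.98 for PRKAR1A and 1.00 for PRKAR2B. Whether the stage trend differed between gilts was tested with an interaction term, and all 7 genes had an adjusted edgeR p of 1. That test called 0 of 15637 genes, so it says nothing particular to the 7 and does not show that their trends were alike.

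**Figure D5:**
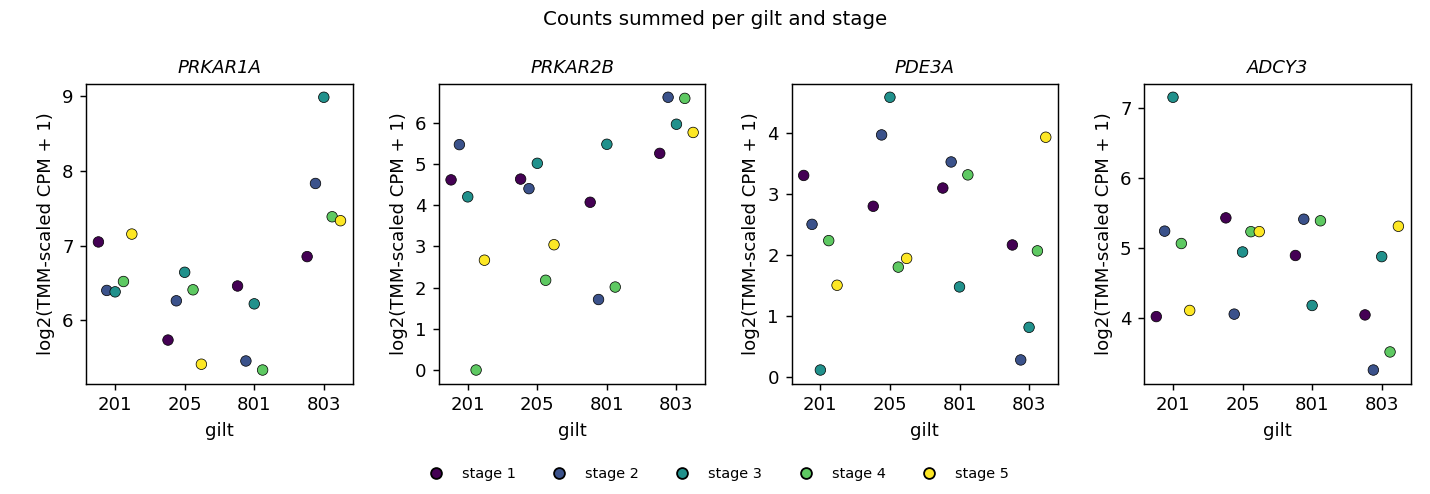
PRKAR1A, PRKAR2B, PDE3A and ADCY3 (y axes, log2 of TMM-scaled CPM + 1) in the counts summed per gilt and stage, by gilt (x axes) and coloured by stage. PRKAR1A has a median of 166 and PRKAR2B of 61.6 TMM-scaled CPM in gilt 803, above the medians of the other 3 gilts.

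The genes whose pattern over the 19 sums was most like a member were taken from 5192 genes with a symbol and a mean of at least 10 CPM. For PRKAR1A they were RGS4 (Spearman rho 0.90), YWHAZ (0.90) and BTG1 (0.88), and for PRKAR2B they were ARRDC3 (0.86), FAM114A1 (0.82) and SLC25A6 (0.81). For ADCY3 they were EXTL3 (0.89), CENPJ (0.87) and KIF2C (0.86), and for PDE3A they were WDFY2 (0.79), MRPL22 (0.76) and NDC80 (0.76). For PRKACA they were PPP4R2 (0.84), SRRM2 (0.83) and RDX (0.80), for PRKACB SETD5 (0.83), TTC3 (0.72) and PIK3R1 (0.69), and for GPR3 UBOX5 (0.77), APBA1 (0.65) and UGGT2 (0.64). Without the granulosa-rich oocytes, 5 of these 21 genes stayed among the 3 nearest of their member. GPR3 had a median of 0 over the stages in gilts 201 and 803, so its ranks rest on ties and few counts. Each rho is among the highest of 5192, and the rho that selection alone reaches was not tested.

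The rest of the pathway was read from 9 lists with 90 gene IDs in the count table, of which 86 passed the filter on low counts. None of the 86 was called in any of the 3 stage tests. For stage 5 against stage 1, 39 of the 86 fitted changes were positive and 47 negative, with a median of -0.17, against a median of -0.27 and 42.7% positive over all tested genes. Among the other PKA subunits and inhibitors, all 6 changes were negative, with a median of -1.79. PKIG, a PKA inhibitor protein and the most abundant of them, had -1.16 ± 0.831 (SE), PRKX -0.12 ± 1.54 and PRKAR2A -3.39 ± 2.26.

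The other supply and removal genes were spread around 0. The other cyclases had a median of -0.38, with ADCY9 at 0.73 ± 1.08 (SE), ADCY7 at -3.28 ± 2.31 and ADCY6 at -1.49 ± 2.71. The receptors and G proteins had a median of -0.28. Of these, RGS2, a regulator that speeds up G protein shut-off, had -0.45 ± 0.733, and GNAI3 and GNAI1, inhibitory G protein subunits, had 1.23 ± 0.705 and 0.10 ± 0.876. The other phosphodiesterases had a median of -0.08. PDE8B and PDE8A, which degrade cAMP, had 1.25 ± 1.13 and -0.86 ± 1.28, and PDE5A, which degrades cGMP, had -0.18 ± 1.36.

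Downstream, the A-kinase anchoring proteins, which tether PKA, had a median of 0.53, with AKAP10 at 0.53 ± 0.718 (SE), AKAP9 at 0.69 ± 0.831 and AKAP11 at 0.75 ± 0.913. In the group of cAMP-responsive transcription 6 of 7 changes were positive, with EP300 at 1.19 ± 1.01, CREBBP at 0.45 ± 1.06 and ATF1 at 0.44 ± 1.42. The negative one, named after its value was seen, was CREB1, a transcription factor that PKA phosphorylates, at -4.57 ± 2.09 with an unadjusted p of 0.0378 and an adjusted edgeR p of 0.904. In the other lists, PKIB at -12.1 ± 4.56 and AKAP12 at -4.59 ± 2.16 had unadjusted edgeR p-values of 0.0137 and 0.0431. They too were named after their values were seen. No other gene of the lists had an unadjusted p under 0.05 in this test, and over all 15637 tested genes 840 did. In the M-phase switch 5 of 6 were positive, with a median of 1.09. The oocyte kinase WEE2, a PKA target that inhibits CDK1, had 1.08 ± 0.759, and cyclins CCNB1 and CCNB2 had 1.18 ± 0.734 and -0.55 ± 0.728. Other cAMP effectors had a median of -0.44, with the channels HCN4 at 0.27 ± 1.501 and HCN2 at 1.01 ± 2.13 and the exchange factor RAPGEF4 at 0.03 ± 1.32.

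The genes of cGMP supply and gap junctions, which link the oocyte to its granulosa cells, had a median of -1.05 with 2 of 11 positive. GJA1, the main gap junction protein of granulosa cells and also one of the granulosa markers, had -2.14 ± 1.16 (SE), GJC1, another connexin, 0.31 ± 0.962 and the natriuretic peptide clearance receptor NPR3 -0.68 ± 1.57. GJA1 was the only one of the 86 genes called among the gilts, with an adjusted edgeR p of 0.00225, against 2.17% of all genes. The median of the granulosa and cumulus markers over stages 1 to 5 was 4257, 197, 273, 803 and 886 CPM, and their part in these values was not tested.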

How the data were processed

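The authors deposited raw counts, whole numbers per Ensembl gene ID and oocyte, and a length-scaled table of unit other, named for TPM. Its columns sum to 40073 to 2990163, so its scale is unknown. It was used within an oocyte, apart from the range of its values per count between oocytes, which includes that scale. Per the submitters' processing notes, StringTie 1.2.2, featureCounts, HISAT2 2.1.0 and Trim Galore 0.4.3 were used. The build, annotation release and strandedness are not given in the sources used, and no positions or sequences are printed. Per the labels' protocols, cDNA went through 16 PCR cycles, without molecular identifiers; intervals (95%, Wilson) and limits (3 counts) therefore cover counting error only.

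Counts were summed per gilt and stage (19 sums) and fitted in edgeR 4.0.16 (R 4.3.3; TMM, filterByExpr, glmQLFit, glmQLFTest) with gilt as block and stage; 15637 genes passed, and a two-sided Benjamini-Hochberg adjusted p under 0.05 was called. Oocytes of a gilt are not independent animals, so p-values rest on gilts. Alternatives used DESeq2 1.42.0, limma 3.58.1, other scalings, filters and libraries. Descriptive values used Python 3.11.15, numpy 2.4.6, scipy 1.17.1 and pandas 2.3.3. The fit was tested on simulated data.

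Deviations from the stage means correlated within gilts at a mean r of 0.0124 (201), 0.136 (205), 0.141 (801) and 0.133 (803), against -0.0318 between gilts; gilts pair the sums because the labels name the animal. The members and lists were chosen with earlier results of these data known. Genes named are the members, the up to 3 genes of highest mean CPM per list, the 3 genes most like each member, and ZP3 and GDF9. GPR12, CREB1, PKIB, AKAP12 and the minimum of 20 counts for the order per length were added after the values were seen.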

Additional observations from a re-analysis of the deposited data

Results flagged for a closer look

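Each stage's 4 gilts (3 at stage 5, not tested) were checked for a value far from the others by Dixon's ratio of gap to range at the 95% level, on TMM-scaled CPM of the summed counts. Of 28 groups, 7 genes at 4 stages, 10 held such a value; chance flags about 1 in 20 groups of normally distributed values, but these values are skewed, their own rate was not tested, and the genes share libraries. Gilt 803 stood apart for PRKAR1A at stage 3 with 505, against 73.6 to 98.9 in the other gilts, and for PRKAR2B at stage 4 with 95.8, against 0 to 3.53. At stage 3, oocyte 2 of gilt 803 held 37912 PRKAR1A counts, and its other oocytes held 262 to 3694 each. Of the gilt 803 libraries, 3 of 4 at stage 3, with 4864 to 31869 CPM of granulosa and cumulus markers, and all 4 at stage 4, with 8671 to 24331 CPM, were granulosa-rich, and the part of these in the values was not tested. Gilt 201 stood apart for PRKACA at stages 1 and 2 with 20.2 and 30.0, for PRKACB at stages 1 and 4 with 40.9 and 23.7, and for ADCY3 at stage 3 with 141, against 17.1 to 29.7 in the other gilts. At stage 1, oocyte 1 of gilt 201 held 365 PRKACA and 731 PRKACB counts, and oocytes 2 and 3 held 0 to 12 of either. At stage 2, its oocyte 2 held 356 PRKACA counts, and oocytes 1 and 3 held 62 and 44. Its stage 4 value came from oocyte 1 alone. At stage 3, its oocyte 4 held 1533 ADCY3 counts, and its other oocytes held 1 to 222 each. Gilt 205 stood apart for PDE3A at stage 3 with 23.2, against 0.0769 to 1.78. Its oocyte 2 held 441 PDE3A counts there, and its oocyte 1 held 0. GPR3 stood apart at stage 1 in gilt 803 with 7.88, from the 104 counts of 1 oocyte, and at stage 2 in gilt 801 with 0.0697, the only gilt with a count there.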

How the results depend on the processing

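The 6 fitted members gave 180 log2 changes over 15 alternatives: 141 kept their sign and 39 turned, none was called, and the smallest adjusted p was 0.542; the cause was not tested. For stage 5 against stage 1, PRKACA turned to -0.19 with RLE size factors, -0.18 in DESeq2, -0.31 in limma-voom, -0.27 with no replicate block, -0.53 with mean log2 CPM per gilt in limma and -0.036 without oocytes under 1000000 counts. PRKAR1A turned to 0.25 with no replicate block and 0.15 with oocytes as libraries; PDE3A to -0.034 in limma-voom, -0.033 with no replicate block, -0.10 without granulosa-rich oocytes, -0.44 with oocytes as libraries and -0.73 with mean log2 CPM; PRKAR2B to 0.30 and 0.0080 under those last settings; ADCY3 to -0.68 with mean log2 CPM; and PRKACB to 0.0078 with no low-count filter and 0.22 in limma-voom. Leaving out each gilt gave -0.15 to 0.88 for ADCY3, -1.04 to 0.97 for PRKACA, -0.44 to 0.082 for PRKAR1A, -1.86 to 1.54 for PDE3A and -0.27 to 0.57 for PRKACB. For the trend, PRKAR1A turned to 0.042 with no replicate block, 0.0040 with oocytes as libraries and 0.039 without the 3 alike libraries, PRKACA to 0.17 with oocytes as libraries and 0.027 without the 3 alike libraries, PDE3A to 0.020 without those, PRKAR2B to 0.067 with oocytes as libraries and 0.023 with mean log2 CPM, and ADCY3 to -0.038 with mean log2 CPM. Leaving out each gilt gave trends of -0.27 to 0.26 for PRKACA, -0.048 to 0.010 for PRKAR1A, -0.40 to 0.24 for PDE3A and -0.087 to 0.055 for PRKACB.

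Over all genes, stage 5 against stage 1 called 0, but 23 with no low-count filter, 368 in DESeq2 and 0 to 1 leaving out each gilt; the F test of stages called 0, but 216, 46, 34 with oocytes as libraries and 0 to 45. The trend called 2, but 162 in DESeq2, 7 without the 3 alike libraries, 0 to 2 leaving out each gilt, and 0 in limma-voom, with no replicate block, without mitochondrially encoded genes, without granulosa-rich oocytes, with oocytes as libraries, with mean log2 CPM and without oocytes under 1000000 counts. The test among gilts called 339, but 935 with no low-count filter, 1006 in DESeq2, 14 without granulosa-rich oocytes, 873 with oocytes as libraries, 225 with mean log2 CPM and 27 to 549 leaving out each gilt. The alternatives without the 3 alike libraries and without oocytes under 1000000 counts were chosen after seeing the data. GPR3 had at most 104 counts in an oocyte, in a library of 3935514 counts. It was at 0 in oocyte 1 of gilt 801 at stage 1, a library of 23426990 counts. Its Spearman rho with the total count was 0.11, and the part of depth in its low counts was not tested.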
